A study of Mus musculus with 10 samples.

Results

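The enzymes that attach ubiquitin and related small proteins to other proteins, and those that take them off again, were followed in the developing mouse neocortex. Members were the genes of the deposited table whose symbol begins with Uba and a digit, Ube2, Ube3, Ube4, Usp and a digit, Cul and a digit, Otu or Uch. This gave 76 of 6147 genes. They were 5 activating enzymes (E1), 21 conjugating enzymes (E2), 5 Ube3 and Ube4 ligases, 8 cullins, 30 ubiquitin-specific proteases (USP), 4 ovarian tumour domain proteases (OTU) and 3 ubiquitin C-terminal hydrolases (UCH). RNA came from neocortex lysates of CD1 wild type mice, an outbred strain with no allele or treatment named, on embryonic days E12.5, E14, E15.5 and E17 and at birth (P0). Each stage had 2 libraries described as biological duplicates, 10 in all. The labels do not say whether duplicates came from separate litters or pools, so p-values measure only the spread between these samples.

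Ubiquitin is passed along a chain of enzymes. An E1 charges it with ATP, an E2 receives it, and an E3 ligase brings the charged E2 to a substrate; cullins are the scaffolds of the largest ligase family, and deubiquitinases (USP, OTU and UCH) reverse the reaction. Chains of ubiquitin send proteins to the proteasome or change their traffic and activity. In the embryonic cortex the system drives progenitors through mitosis by destroying cyclins, and in neurons it shapes axons and synapses. Some members act on other modifiers, such as SUMO and NEDD8, which activates cullins. Symbols alone do not separate these.

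Values were TPM, each gene's share of all transcripts after correction for gene length, so levels can be compared between genes. TPM keep no read numbers, so depth is unknown. All 76 members had a mean of at least 1 TPM over the 10 libraries and were tested among 6048 genes; the lowest was Cul9. On log2(TPM + 1), the SD of the difference between duplicates over the members was 0.215 at E17, 0.167 at P0 and from 0.0786 to 0.0924 elsewhere. At E17, replicate 1 lay above replicate 2 by a median of 0.25 for the 38 members with transcripts of 4143 bases or more and by 0.08 for the 38 shorter ones; at P0 the medians were -0.15 and -0.04. Neuronal markers summed to between 2580 and 2607 TPM at E12.5 and between 10405 and 11299 TPM at P0 (9 of 10 listed in the table), and neocortical identity genes to between 1002 and 1609 TPM in all libraries. Markers of meninges (5 of 6 in the table) were at 173 TPM at E12.5 and between 106 and 111 at E14, and between 2.80 and 3.03 at E15.5. Choroid plexus markers (2 of 6) were between 303 and 452 TPM at E12.5, 1405 and 1517 at E14, and 3.46 and 4.25 at E15.5. Erythroid markers (3 of 10) were between 4323 and 4494 TPM, 1880 and 1975, and 9.26 and 9.84 at these stages. At P0 the meninges, choroid plexus and erythroid sums were between 2.22 and 2.57, 3.07 and 4.57, and 2.04 and 2.49 TPM. These changes coincide with the steps from E12.5 to E14 and from E14 to E15.5, and with the span from E12.5 to P0. Their part in the results below was not tested. Of 8 microglial and 8 vessel markers, 1 each was in the table.

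With Uchl1 counted, the members together held much the same share of all transcripts throughout, while single members changed. Their sum was 9039 ± 104 TPM in the E12.5 libraries and 9159 ± 210 in the P0 libraries (SD, n = 2), or 0.904% and 0.916% of all TPM, and the 3 stages between had means from 8895 to 8969 TPM. Without Uchl1, the most abundant member, the other 75 summed to 8609 ± 107 TPM at E12.5 and 7832 ± 145 at P0 (SD, n = 2). Their means at E14, E15.5 and E17 were 8375, 8061 and 7901 TPM. Between the first and the last stage, 20 members rose and 35 fell in limma's moderated test (Benjamini-Hochberg adjusted p under 0.05 over 6048 genes), and 21 were not called. That is 26.3% and 46.1% of the members, beside 27.1% of all genes higher and 51% lower. Changes of at least 1 on the log2 scale were found in 4 rising members (5.26%, against 11.1% of all genes) and 11 falling ones (14.5%, against 20%). The median change was -0.20 for the members and -0.27 for all genes tested. Over the 5 stages, 55 members (72.4%) passed the F test, beside 82.9% of all genes.

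The direction of small changes depended on the scaling. TPM are shares, and the cause of this dependence was not tested. Median-of-ratios scaling, which brings the median of all genes to -0.01, gave 33 rising and 25 falling members, and quantile normalization 26 and 26. Of the 20 rises, 13 were called in every alternative fit that tested the gene, and of the 35 falls, 23. Highest stage means were at E12.5 for 38 members and at P0 for 20. The 4 rises of at least 1 were those of Usp43, Uchl1, Cul9 and Ube2v2; the 11 falls were those of Ube2c, Ube2t, Usp1, Usp8, Uba6, Usp9x, Usp40, Usp25, Usp39, Cul4b and Uba2. Each of these was called in every alternative that tested it.

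**Figure D1:**
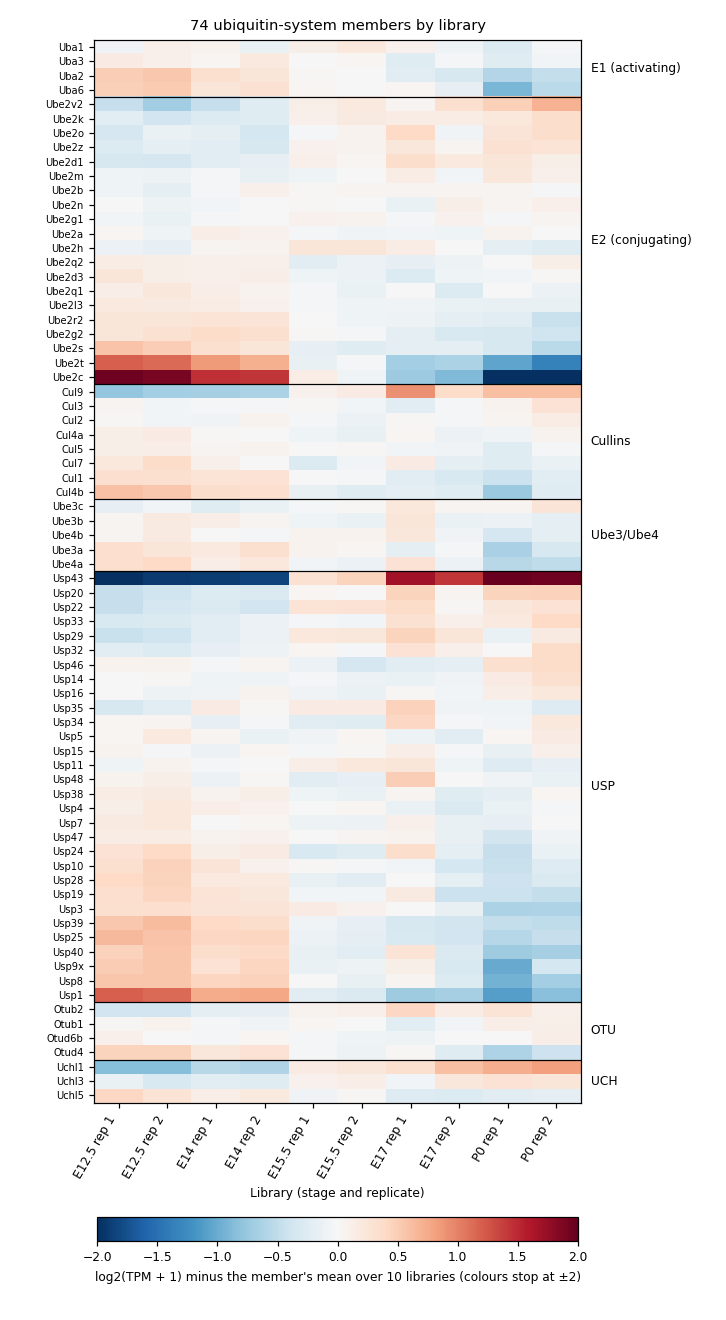
Heat map of 74 of the 76 members (rows, grouped by class and ordered by their change from E12.5 to P0) in the 10 libraries (columns). Colour is log2(TPM + 1) minus the member's own mean, red above and blue below, and stops at ±2; Ube2c and Usp43 have the strongest colours, Ube2c from red at E12.5 to blue at P0 and Usp43 the other way round.

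**Figure D2:**
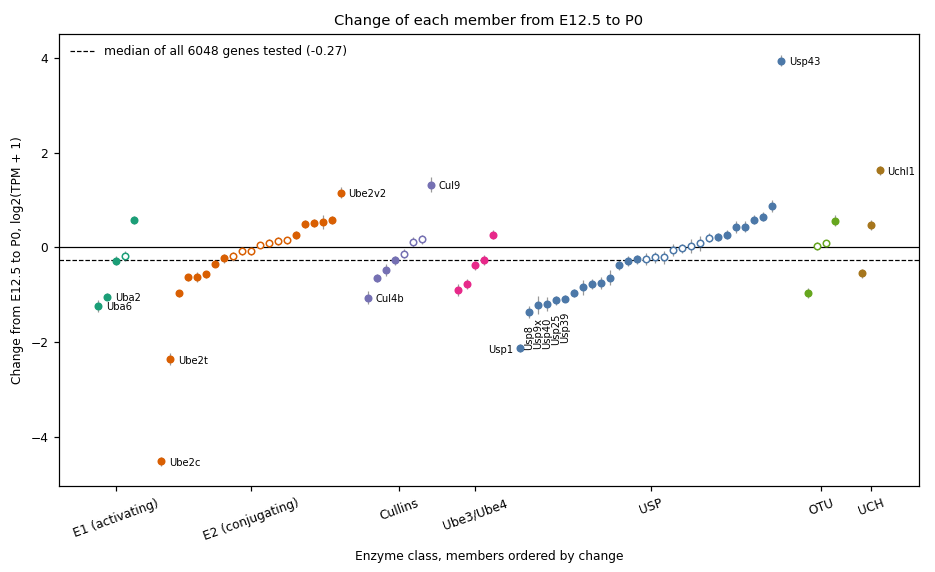
Change from E12.5 to P0 on the log2(TPM + 1) scale (y axis) of each member, grouped by class (x axis), with bars for the SE from limma. Filled points were called (20 higher, 35 lower), open points were not (21), and the dashed line is the median of all 6048 genes tested, -0.27.

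The E1 enzymes for ubiquitin differed from each other. Uba1, the main E1 for ubiquitin, was not called: it was at 162.9 and 183.9 TPM at E12.5, 180.2 and 155.9 at E14, 185.7 and 197.0 at E15.5, 181.4 and 160.5 at E17, and 141.0 and 165.7 at P0 (change -0.18, SE 0.11, adjusted p 0.148). Its P0 and E12.5 libraries overlapped. Uba6, the other E1 for ubiquitin, was at 18.5 and 19.13 TPM at E12.5, at a mean of 15.87 in the E14 pair, 13.35 and 12.82 at E15.5, 13.33 and 11.43 at E17, and 6.401 and 8.631 at P0, a fall of -1.23 (SE 0.13, adjusted p 4.33e-06; -0.72 with a pseudocount of 10 TPM). Both P0 libraries lay below all others. Ube2z, the E2 that Uba6 charges and Uba1 does not, rose over the same span by 0.52 (SE 0.08, adjusted p 6.9e-05), from 102.9 and 108.4 to 154.2 and 150.4 TPM. The E1 and its E2 thus moved apart, and no library of P0 overlapped with E12.5 for either.

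In the SUMO pathway most genes tested fell. Uba2, the catalytic subunit of the SUMO E1, went from 129.9 and 134.5 TPM at E12.5 through 115.2 and 109.8, 94.14 and 92.42, and 79.24 and 73.76 to 61.34 and 66.46 at P0, each stage below the one before, with the last 3 steps called (-1.04, SE 0.08, adjusted p 1.68e-07). Of 12 other SUMO pathway genes tested, 8 fell, 4 were not called and 0 rose, with a median of -0.52. Over all genes, 51% were lower and 27.1% higher, with a median of -0.27. Ranbp2, a SUMO ligase of the nuclear pore, fell most (-1.14, adjusted p 1.06e-05). Sae1, the partner of Uba2 and named here after its values were seen, went from 285 to 132 TPM (-1.11, SE 0.07, adjusted p 3.53e-08).

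With TPM as deposited, the NEDD8 enzymes tested split in direction. Uba3, part of the NEDD8 E1, fell by 0.28 on the log2 scale (adjusted p 0.0225), but the value was -0.00 with median-of-ratios scaling and 0.11 with a length and GC correction. Ube2m, a NEDD8 E2, rose by 0.26 (adjusted p 0.0182), and by 0.07 with that correction. In the corrected fit neither gene was called (adjusted p 0.131 for Uba3 and 0.246 for Ube2m). Both calls were lost without either E12.5 library and without P0 replicate 1, with adjusted p between 0.0538 and 0.167.

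The members with the steepest falls were enzymes of dividing cells. Ube2c, the E2 with which the anaphase-promoting complex (APC/C) starts ubiquitin chains on cyclins in mitosis, was at 419.8 and 407.2 TPM at E12.5, 298.9 and 294.6 at E14, 120.1 and 101.6 at E15.5, 64.75 and 58.49 at E17, and 17.28 and 16.74 at P0. The stages did not overlap and each was lower than the one before. The change was -4.52 on the log2 scale (SE 0.09, adjusted p 1.9e-11), and the P0 mean was 0.0411 of the E12.5 mean. Ube2c and Usp1 were the only 2 members called at all 4 steps. Ube2s, which extends the chains that Ube2c starts, fell less, from 272.5 and 258.1 to 145.8 and 125.1 TPM (-0.97, SE 0.08, adjusted p 6.89e-07). Of 15 subunits and regulators of the APC/C tested, 9 fell, 1 rose and 5 were not called. Of all genes, 51% were lower and 27.1% higher. The median of the 15 was -0.31, near the -0.27 of all genes. Anapc1, the largest subunit of the APC/C, fell most (-0.98, adjusted p 1.95e-05). The rise of Anapc16 (0.20, adjusted p 0.0401) was lost without E12.5 replicate 1 (0.072), E12.5 replicate 2 (0.194), P0 replicate 1 (0.267) or any 1 library of E14 or E15.5 (0.0596 to 0.0659).

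Ube2t and Usp1 act at the same step of DNA repair from opposite sides: Ube2t attaches the ubiquitin that switches on the Fanconi anaemia pathway, and Usp1 removes it. Ube2t was at 24.79 and 23.6 TPM at E12.5, 19.41 and 17.42 at E14, 9.127 and 10.14 at E15.5, 6.041 and 6.259 at E17, and 4.421 and 3.421 at P0 (-2.36, SE 0.12, adjusted p 7.8e-09; -1.30 with a pseudocount of 10 TPM). Usp1 was at 114.3 and 109.9 TPM, then 83.41 and 85.29, 42.17 and 40.26, 29.99 and 30.88, and 22.67 and 27.24 (-2.13, SE 0.09, adjusted p 2.02e-09). In both genes no stage overlapped with its neighbours. Of 11 members listed for roles in mitosis and DNA repair, 6 fell (Ube2c, Ube2s, Ube2t, Usp1, Usp3 and Usp7), 1 rose (Usp22) and 4 were not called (Ube2a, Ube2b, Ube2n and Usp16), with a median of -0.29. That count and median are near those of all genes (51% lower, median -0.27), and nothing particular to the list is read from them. The fall of Usp7, a protease that stabilises Mdm2 and p53, was small (-0.29, adjusted p 0.0162), became 0.08 with the length and GC correction, and lost its call without either E12.5 library (adjusted p 0.0555 and 0.0812) or P0 replicate 1 (0.11). Usp3, a histone deubiquitinase, fell by 0.96 on the log2 scale (adjusted p 3.17e-07). Markers of proliferating cells (15 of 16 in the table) summed to between 1635 and 1702 TPM at E12.5, 1147 and 1198 at E14, 521 and 532 at E15.5, 307 and 357 at E17, and 178 and 182 at P0; their median change was -3.88. In bulk tissue, fewer dividing cells and less RNA per cell cannot be told apart.

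The promoters of these members are shown because many mitotic genes carry the same short elements near their start. Both strands were searched for the cell cycle homology region (CHR, letters TTTGAA) and for its variant with a single changed letter (TTCGAA). The CCAAT box was searched by those letters alone. The first of the E2F motifs searched was TTGGCGC. The second of the E2F motifs searched was TTCCCGC. Windows ran from 250 bases before to 50 bases after the RefSeq start (GRCm38.p6). The windows of Ube2c (chr2:164769679-164769978), Ube2t (chr1:134962315-134962614) and Uchl1 (chr5:66675871-66676170), all on the forward strand, are given 5′ to 3′. Matches are in capitals, and a match on the reverse strand appears as the reverse complement of the motif. Uchl1, the member with the highest mean and a rising one, is printed beside them.
Ube2c: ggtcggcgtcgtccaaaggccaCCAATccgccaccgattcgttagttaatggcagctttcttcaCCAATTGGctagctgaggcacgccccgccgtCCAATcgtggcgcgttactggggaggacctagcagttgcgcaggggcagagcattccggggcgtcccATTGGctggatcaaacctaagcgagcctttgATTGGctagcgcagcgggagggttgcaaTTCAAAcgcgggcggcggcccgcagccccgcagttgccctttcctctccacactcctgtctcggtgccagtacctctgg
Ube2t: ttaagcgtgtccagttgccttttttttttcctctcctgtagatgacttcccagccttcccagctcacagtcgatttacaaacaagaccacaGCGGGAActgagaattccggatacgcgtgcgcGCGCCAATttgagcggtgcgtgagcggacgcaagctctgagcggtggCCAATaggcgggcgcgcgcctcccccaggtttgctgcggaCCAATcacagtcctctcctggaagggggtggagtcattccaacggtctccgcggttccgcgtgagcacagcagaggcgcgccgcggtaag
Uchl1: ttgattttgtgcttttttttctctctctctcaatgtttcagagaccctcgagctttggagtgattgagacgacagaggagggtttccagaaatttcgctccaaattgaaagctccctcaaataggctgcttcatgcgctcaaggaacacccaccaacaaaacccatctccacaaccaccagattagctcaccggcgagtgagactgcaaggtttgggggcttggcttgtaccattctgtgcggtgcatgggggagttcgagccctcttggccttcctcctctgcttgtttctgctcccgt

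The window of Ube2c held 7 matches. They were 6 CCAAT, of which a pair on opposite strands overlap, and a CHR on the reverse strand that begins at -29. That of Ube2t held 5. They were 3 CCAAT boxes and both E2F motifs on the reverse strand, the first at -127, where it overlaps with a CCAAT box, and the second at -159. That of Uchl1 held 0. RefSeq windows were found for 60 members (74 windows), among them 7 of the 11 that fell by at least 1. TTTGAA was in 3 of those 7 (Uba2, Ube2c and Usp40; 42.9%), in 7.69% of 65 windows of members that changed less or were not called, and in 17.9% of 32851 windows of all genes. CCAAT was in 3 of the 7 (Cul4b, Ube2c and Ube2t), in 21.5% of the 65 and in 37.4% of all. Among the members that rose by at least 1, only Uchl1 and Cul9 had a window, and CCAAT was in that of Cul9. The other motifs were in neither. The CHR variant was in 0 of the 7, in 3.08% of the 65 and in 1.56% of all. The first of the E2F motifs was in 1 of the 7, in 3.08% of the 65, in 4.96% of the 6247 windows of genes in the deposited table and in 2.45% of all. The second was in 1 of the 7, in 10.8% of the 65, in 8.66% of the 6247 and in 4.6% of all. Over the same 6247 windows the CHR was in 11.4% and the CCAAT box in 37%. A match is a description of letters, not a site that a factor was shown to bind.

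**Figure D3:**
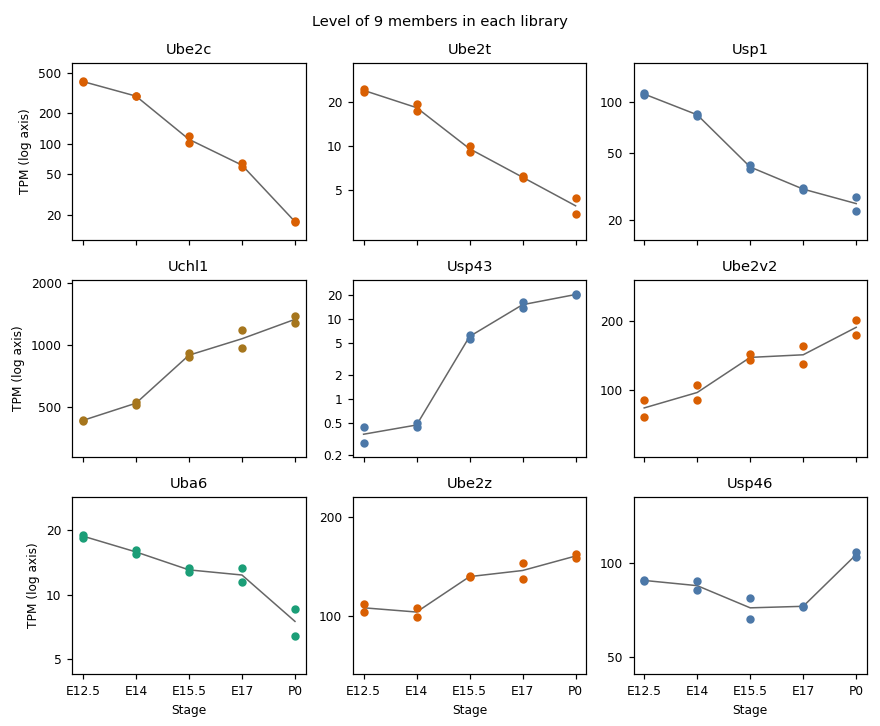
TPM (log axis, a separate range in each panel) of 9 members in each library against stage; points are libraries, lines join stage means. Ube2c, Ube2t, Usp1 and Uba6 fall to P0; Uchl1, Usp43, Ube2v2 and Ube2z rise, with the largest step of Uchl1 and Usp43 from E14 to E15.5; Usp46 rises in the last step, from 72.34 and 73.16 TPM at E17 to 104.5 and 108.3 at P0.

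Apart from Ube2c the E2 pool changed little in size. The 21 E2s summed to 5558 ± 148 TPM at E12.5 and 5052 ± 12.1 at P0 (SD, n = 2), and without Ube2c to 5144 ± 140 and 5035 ± 11.7. Ube2c alone was 7.41% and 7.47% of E2 TPM at E12.5 and 0.342% and 0.332% at P0. The most abundant E2s, Ube2d3, Ube2n and Ube2l3, serve many ligases. Ube2d3 (923.3 and 850.1 TPM at E12.5, 756.1 and 795.9 at P0; -0.19, adjusted p 0.0631) and Ube2n (495.1 and 466.1, then 518.5 and 538; 0.14, adjusted p 0.179) were not called, though both were without either E17 library (adjusted p 0.0081 and 0.00815, and 0.0425 and 0.0427). Ube2l3 fell (-0.34, adjusted p 0.000959), but its value was 0.06 with the length and GC correction.

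Ube2v2 rose most among the E2 group. It resembles an E2 but has no catalytic cysteine, and it pairs with Ube2n to build chains that signal and do not send proteins to the proteasome. It was at 90.29 and 75.92 TPM at E12.5, 89.8 and 104.4 at E14, 134.2 and 142.5 at E15.5, 142.1 ± 18.3 (SD, n = 2) at E17, and 173.4 and 201.4 at P0 (1.16, SE 0.12, adjusted p 3.17e-06). All libraries from E15.5 on lay above those of E12.5 and E14, and Ube2n, its partner, was not called. Other rises were those of Ube2k, which extends chains (0.58, adjusted p 5.01e-05), Ube2o (0.54, adjusted p 0.00496; 0.0522 without E12.5 replicate 1), Ube2z (above) and Ube2d1, a close relative of Ube2d3 (0.50, adjusted p 0.000138). Falls outside the mitotic members were those of Ube2g2, an E2 of protein quality control at the endoplasmic reticulum (-0.63, adjusted p 8.91e-06), Ube2r2, which works with cullin ligases (-0.57, adjusted p 6.44e-05) and Ube2q1 (-0.23, adjusted p 0.0463), whose call was lost when any 1 library of E12.5, E14, E15.5 or P0 was left out (adjusted p between 0.0561 and 0.213). Ube2a, Ube2b, Ube2g1 and Ube2q2 were not called (0.05, 0.15, 0.09 and -0.08); Ube2b was without either E17 library (adjusted p 0.047 and 0.0472). With median-of-ratios scaling Ube2a (0.33), Ube2b (0.42), Ube2g1 (0.37) and Ube2n (0.41) were called higher, and with the length and GC correction these (0.45, 0.55, 0.46 and 0.50) and Ube2q2 (0.28) were. Ube2h had its highest mean in the middle: 266.8 and 259 TPM at E12.5, 341.5 and 342.2 at E15.5, and 252.9 and 243.7 at P0. Its change over the whole span was -0.08 (adjusted p 0.329), while the F test over 5 stages gave an adjusted p of 0.000951. Ube2q2 also passed that F test (adjusted p 0.0101), with a called fall from E14 to E15.5 (-0.27, adjusted p 0.0139).

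Of the 5 Ube3 and Ube4 ligases, 4 fell and 1 rose, beside 51% of all genes lower and 27.1% higher. Ube3a, the ligase lost in Angelman syndrome and silenced on the paternal allele in neurons, was at 122.9 and 114.3 TPM at E12.5, 110.9 and 121.2 at E14, 101.2 and 99.08 at E15.5, 85.23 and 94.49 at E17, and 61.57 and 77.25 at P0 (-0.77, SE 0.11, adjusted p 3.7e-05). P0 was below all earlier libraries, and its step from E17 was called (-0.38). Of the 50-base stretches of its longest transcript, 27.4% also occur in other genes, chiefly the antisense transcript Snhg14, and the strand setting of the counting is not known here. Ube4a, an E4 that lengthens chains, fell by 0.90 on the log2 scale (adjusted p 2.79e-05) and its relative Ube4b by 0.38 (adjusted p 0.00508; 0.0515 without E12.5 replicate 2, and -0.11, adjusted p 0.224, with median-of-ratios scaling). Ube3b (-0.27, adjusted p 0.0481) lost its call when any 1 library of E12.5, E14, E15.5 or P0 was left out (adjusted p between 0.0672 and 0.228), and its value was 0.00 with median-of-ratios scaling. Ube3c, which extends chains on the proteasome, rose by 0.27 (adjusted p 0.03), a call lost without either E12.5 library (0.171 and 0.0525), either E15.5 library (0.0501 and 0.0502) or P0 replicate 2 (0.202).

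Of 47 other E3 ligases tested, 14 rose, 25 fell and 8 were not called (median -0.38), shares near those of all genes (27.1% higher, 51% lower, median -0.27). Uhrf1, which keeps DNA methylation through replication, fell most (-4.39, from 88.6 to 3.27 TPM, adjusted p 7e-11), and Trim67, a brain ligase, rose most (3.63, from 26.4 to 338 TPM, adjusted p 7.72e-10). Both changes were larger than that of any Ube3 or Ube4 member. Nedd4, named here after its values were seen, fell from 558 to 114 TPM (-2.30, adjusted p 2.66e-08).

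Cullins hold a substrate adaptor at their amino end and a RING protein with the charged E2 at the other. Of 8, Cul1, Cul4b, Cul5 and Cul7 fell, Cul9 rose, and Cul2, Cul3 and Cul4a were not called. Cul4b, which binds substrates through Ddb1 and is X-linked, was at 29.86 and 28.62 TPM at E12.5, 25.24 and 24.87 at E14, 17.39 and 16.21 at E15.5, 16.92 and 16.32 at E17, and 11.23 and 16.26 at P0 (-1.06, SE 0.14, adjusted p 2.66e-05). The P0 libraries differed more from each other than any other pair. Cul1, the scaffold of the SCF ligases, went from 124.9 and 123 to 73.18 and 84.87 TPM (-0.65, adjusted p 2.05e-05). Cul3, whose adaptors are BTB proteins, was at 101.6 and 94.71 TPM at E12.5 and 102.3 and 119.3 at P0 (0.17, adjusted p 0.117), and was called without either E17 library (adjusted p 0.0466 and 0.047) or P0 replicate 1 (0.28, adjusted p 0.0283). Cul2, of the von Hippel-Lindau ligase, was between 26.74 and 32.34 TPM in all libraries (0.12, adjusted p 0.275), and Cul4a between 42.53 and 53.04 (-0.13, adjusted p 0.191); with median-of-ratios scaling both Cul2 and Cul3 were called higher (0.38 and 0.44), and with the length and GC correction Cul4a was (0.20).

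Cul9, a large cullin of the cytoplasm that binds p53, was the lowest member. It was at 1.602 and 1.793 TPM at E12.5, 1.827 and 1.892 at E14, 3.745 and 4.021 at E15.5, 7.427 and 4.733 at E17, and 5.761 and 5.771 at P0 (1.33, SE 0.16, adjusted p 1.02e-05). All libraries from E15.5 on lay above those before. Because levels were low, a pseudocount of 10 TPM reduced the change to 0.43. Cul7, its relative, fell by 0.48 on the log2 scale (adjusted p 0.0061; -0.22, adjusted p 0.0867, with median-of-ratios scaling; adjusted p 0.0585 without E12.5 replicate 2). The fall of Cul5, which works with SOCS-box adaptors, was -0.27 (adjusted p 0.0186), its value was 0.00 with that scaling, and its call was lost without either E12.5 library (0.0756 and 0.081) or P0 replicate 1 (0.112).

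Partners of the cullins moved in both directions: of 26 adaptors and core partners tested, 10 rose, 9 fell and 7 were not called (median 0.03). All genes had 27.1% higher, 51% lower and a median of -0.27. Dtl, a substrate receptor of Cul4 ligases in S phase, fell most (-3.38, from 50.2 to 3.91 TPM, adjusted p 2.2e-10), and Fbxo41, an F-box protein of neurons, rose most (2.74, from 5.85 to 44.6 TPM, adjusted p 3.33e-09). Ddb1, the adaptor of both Cul4 proteins and named after its values were seen, fell from 196 to 69.1 TPM (adjusted p 1.14e-07). Of 17 genes of the COP9 signalosome, which takes NEDD8 off cullins, and of neddylation, 1 rose, 8 fell and 8 were not called (median -0.20). The share that fell was near the 51% of all genes. Cand2, an exchange factor for cullin adaptors, fell most (-2.38, adjusted p 1.14e-07); the rise of Cops8 (0.21, adjusted p 0.0229) was lost without E12.5 replicate 1 (0.159) or P0 replicate 1 (0.136).

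Within the USP, OTU and UCH members, the weight moved toward a single enzyme. Uchl1, a hydrolase long used as a marker of neurons, was the most abundant member. Its gene lies on chromosome 5 from 66676091 to 66687234 (forward strand, GRCm38). It was at 427.2 and 431.1 TPM at E12.5, 528.4 and 511.7 at E14, 868.7 and 909.9 at E15.5, 963.4 and 1174 at E17, and 1281 and 1374 at P0 (1.63, SE 0.10, adjusted p 2.77e-08). Stages rose in order with no overlap. Its share of the TPM of the 37 USP, OTU and UCH members was 18.6% and 18.4% at E12.5, 22.7% and 22.2% at E14, 31.7% and 32.9% at E15.5, 33.3% and 40.7% at E17, and 41.7% and 41.9% at P0. The other 36 summed to 1892 ± 29.3 TPM at E12.5 and 1851 ± 80.3 at P0 (SD, n = 2). Deubiquitinases of other families were not counted (between 662 and 669 TPM at E12.5 and between 589 and 624 at P0). The UCH class went from 549 ± 6.41 to 1461 ± 63 TPM, while the USP class was at 1448 ± 39.4 and 1394 ± 79.4 and the OTU class at 324.8 ± 0.956 and 323.5 ± 3.12. Of its relatives, Uchl3 rose by 0.48 (adjusted p 0.000767), and Uchl5, bound to the proteasome, fell by 0.55 on the log2 scale (adjusted p 0.00011). With the length and GC correction the change of Uchl5 was -0.19 and was not called (adjusted p 0.0689). Of the 50-base stretches of the longest Uchl1 transcript, 16.2% occur in other genes, chiefly the antisense transcript Uchl1os.

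**Figure D4:**
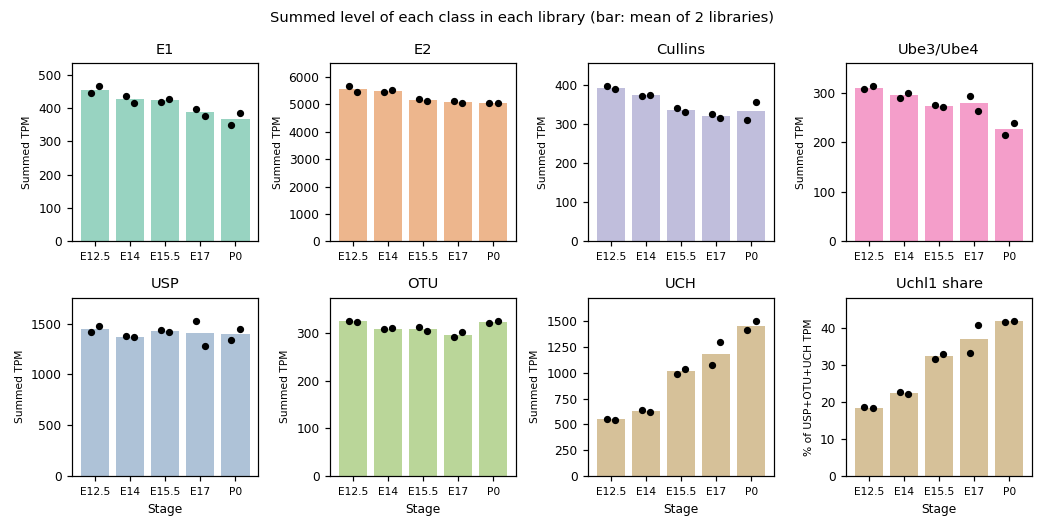
Summed TPM of each class (7 panels) and the share of Uchl1 in the TPM of the USP, OTU and UCH members (last panel) by stage. Bars are means of 2 libraries, points the libraries, and all axes start at 0. The UCH sum goes from 549 to 1461 TPM while the USP sum stays between 1279 and 1527 in all libraries, and the Uchl1 share reaches 41.7% and 41.9% at P0.

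Of 30 USPs, 8 rose, 14 fell and 8 were not called. These shares of 26.7% and 46.7% were near those of all genes (27.1% higher and 51% lower). Usp43 stood apart. It was at 0.2863 and 0.4484 TPM at E12.5, 0.4556 and 0.5015 at E14, 5.7 and 6.394 at E15.5, 16.43 and 13.64 at E17, and 20.34 and 19.9 at P0, so that it was barely detected at the first 2 stages. The P0 mean was 54.8 times the E12.5 mean. On the log2(TPM + 1) scale the change was 3.95 (SE 0.12, adjusted p 1.27e-10), and between 1.54 with a pseudocount of 10 TPM and 5.46 with 0.1, always called. Its largest step, from E14 to E15.5, was 2.25. Its gene lies on chromosome 11 from 67854523 to 67922153 (reverse strand), and 12.7% of its 50-base stretches occur in other genes, chiefly the antisense transcript 9130017K11Rik.

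The other rising USPs changed by less than 1. Usp20 (0.88, adjusted p 4.06e-05) and its close relative Usp33, which binds the axon guidance receptor Robo1 (0.59, adjusted p 0.000197), rose together. Usp22, the deubiquitinase of the SAGA coactivator, was the most abundant USP: it was at 291.9 and 319 TPM at E12.5, 330.7 and 309.2 at E14, 489.3 and 494.8 at E15.5, 518.2 and 408.6 at E17, and 469.7 and 491.9 at P0 (0.65, adjusted p 0.000127). It rose at the step to E15.5 (0.62) and at no later one. Usp29 and Usp32 rose by 0.44 (adjusted p 0.00524) and 0.43 (adjusted p 0.00643), and both lost the call without P0 replicate 2 (0.0542 and 0.0648). Usp46, which acts on synaptic receptors, was lower at E15.5 than at E14 (-0.24) and rose from E17 to P0 (0.54, adjusted p 0.00066). Over the whole span its rise of 0.27 (adjusted p 0.0123) was lost without either E12.5 library (0.0542 and 0.0588) or P0 replicate 2 (0.0561), and that of Usp14, bound to the proteasome (0.22, adjusted p 0.0278), without either E12.5 library (0.111 and 0.0902) or P0 replicate 2 (0.159).

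Besides Usp1, the largest falls among the USPs were those of Usp8, which acts on receptors in endosomes (-1.36, adjusted p 1.8e-06), the X-linked Usp9x (-1.21, adjusted p 9.95e-05), Usp40 (-1.19, adjusted p 2.19e-05), Usp25 (-1.12, adjusted p 9.32e-07) and Usp39, a splicing factor without protease activity (-1.08, adjusted p 2.81e-07). Usp8 was at 22.58 and 22.56 TPM at E12.5, 20.72 and 21.28 at E14, 14.97 and 13.61 at E15.5, 15.8 and 12.34 at E17, and 7.386 and 9.087 at P0, with falls at the steps to E15.5 and to P0. For Usp9x the P0 libraries were at 10.04 and 16.32 TPM and the E12.5 ones at 30.39 and 31.71; they did not overlap, but the P0 pair differed widely. Usp28, the closest relative of Usp25, also fell (-0.77, adjusted p 3.32e-05), as did Usp19 (-0.84), Usp10 (-0.75), Usp24 (-0.64), Usp47 (-0.37) and Usp4 (-0.25). Of these, Usp24 and Usp47 lost the call without P0 replicate 1 (adjusted p 0.0564 and 0.0721) and Usp4 without E12.5 replicate 2 (0.136) or P0 replicate 1 (0.0816). The change of Usp47 was -0.10 with median-of-ratios scaling (adjusted p 0.328) and -0.02 with the length and GC correction (adjusted p 0.79). With quantile normalization Usp24 (-0.25, adjusted p 0.0606), Usp47 (-0.20, adjusted p 0.0556) and Usp4 (-0.03, adjusted p 0.71) were not called. With a pseudocount of 10 TPM the changes of Usp8, Usp40, Usp25 and Usp28 were -0.84, -0.62, -0.67 and -0.48. Usp5, Usp11, Usp15, Usp16, Usp34, Usp35, Usp38 and Usp48 were not called. Without either E17 library Usp11 (-0.21), Usp16 (0.21), Usp38 (-0.24) and Usp48 (-0.21) were, with adjusted p from 0.0169 to 0.0232. With median-of-ratios scaling Usp16 (0.48), Usp34 (0.30) and Usp35 (0.32) were called higher. Usp5, which takes apart free ubiquitin chains, was between 54.06 and 71.99 TPM in all libraries (-0.02, adjusted p 0.873), but 0.25 and called higher with median-of-ratios scaling.

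In the OTU class, Otud4 fell (-0.96, SE 0.11, adjusted p 6.13e-06) and Otub2 rose (0.57, SE 0.11, adjusted p 0.00042). Otub1, which also blocks Ube2n without cutting ubiquitin, was between 139.8 and 179.4 TPM (0.09, adjusted p 0.305), and Otud6b between 77.37 and 91.69 (0.03, adjusted p 0.759). Neither was called from E12.5 to P0, and both were called higher with median-of-ratios scaling (0.36 and 0.30). Otub1 did pass the F test over 5 stages (adjusted p 0.0475), with a called rise from E17 to P0 (0.27, adjusted p 0.0145). Of 10 deubiquitinases of other families, 2 rose, 3 fell and 5 were not called (median -0.04), from Atxn3, the protein of a polyglutamine ataxia (-0.88, adjusted p 8.07e-06), to Stambp, an endosomal metalloprotease (1.33, adjusted p 1.97e-07). Of 16 ubiquitin receptors and Vcp partners, 3 rose, 11 fell and 2 were not called (median -0.36), from Ddi2 (-1.32, adjusted p 5.16e-06) to Sqstm1, the autophagy receptor p62 (0.81, adjusted p 5.65e-06). Of the ubiquitin genes, Rps27a was in the table, at 1727 TPM at E12.5 and 1378 at P0 (-0.33, adjusted p 0.0997; called without either E17 library, adjusted p 6.87e-05 and 6.92e-05). Among 10 members listed for described roles in neurons, 4 rose (Uchl1, Usp14, Usp33 and Usp46), 5 fell (Ube3a, Usp8, Usp9x, Cul5 and Ube4b) and Cul3 was not called, with a median of -0.05. Beside the counts of these lists, 27.1% of all genes were higher and 51% lower, with a median of -0.27.

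Ratios between related members were then compared within libraries, where scaling cancels except through the pseudocount. Effects of transcript length or GC content do not cancel where the members of a pair differ in them. The length and GC correction was not run for the ratios. Of 15 pairs, 11 changed over the 5 stages (exact permutation of the F statistic, all 945 pairings of the libraries, smallest possible p 0.00106, Benjamini-Hochberg adjusted over 15). The log2 ratio of Uchl1 to Uchl3 went from 2.55 ± 0.12 at E12.5 to 3.70 ± 0.11 at P0 (SD, n = 2; exact p 0.00106, adjusted 0.00794). That of Uba1 to Uba6 went from 3.14 ± 0.09 to 4.19 ± 0.11 (exact p 0.00423, adjusted 0.00907), and that of Cul4a to Cul4b from 0.81 ± 0.07 to 1.74 ± 0.26 (exact p 0.00106, adjusted 0.00794). In these 3 the first gene gained on the second. That of Cul1 to Cul3 went from 0.33 ± 0.06 to -0.48 ± 0.01 (exact p 0.00741, adjusted 0.0123): Cul1 was above Cul3 in both E12.5 libraries and below it in both P0 libraries, so the order of these scaffolds turned. For Usp14 and Uchl5, which both sit on the proteasome, it went from 0.45 ± 0.11 to 1.22 ± 0.10 (exact p 0.00212, adjusted 0.00794).

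The ratio of Ube3a to Ube3c fell by 1.04 on the log2 scale (exact p 0.00317, adjusted 0.00794), from 1.58 ± 0.15 to 0.55 ± 0.08. Ube2g1 gained on Ube2g2 by 0.72 (exact p 0.0138, adjusted 0.0206) and Cul2 on Cul5 by 0.38 (exact p 0.0169, adjusted 0.0231; in limma's test without P0 replicate 1 the adjusted p was 0.0581). Ube4a lost against Ube4b (-0.51, exact p 0.00212, adjusted 0.00794) and Usp10 against Usp5 (-0.73, exact p 0.00741, adjusted 0.0123). For Otub1 and Otub2 the ratio was lowest at E17, at 1.86 and 2.27, and P0 minus E12.5 was -0.49 (exact p 0.00317, adjusted 0.00794). The ratios of Ube2a to Ube2b (exact p 0.0698, adjusted 0.0806), Ube2q1 to Ube2q2 (exact p 0.774, adjusted 0.774), Usp4 to Usp15 (exact p 0.0561, adjusted 0.0701) and Usp20 to Usp33 (exact p 0.109, adjusted 0.117) did not pass. limma's F test called 13 of the 15, with Usp4 to Usp15 (adjusted p 0.000623) and Usp20 to Usp33 (adjusted p 0.0255) added.

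**Figure D5:**
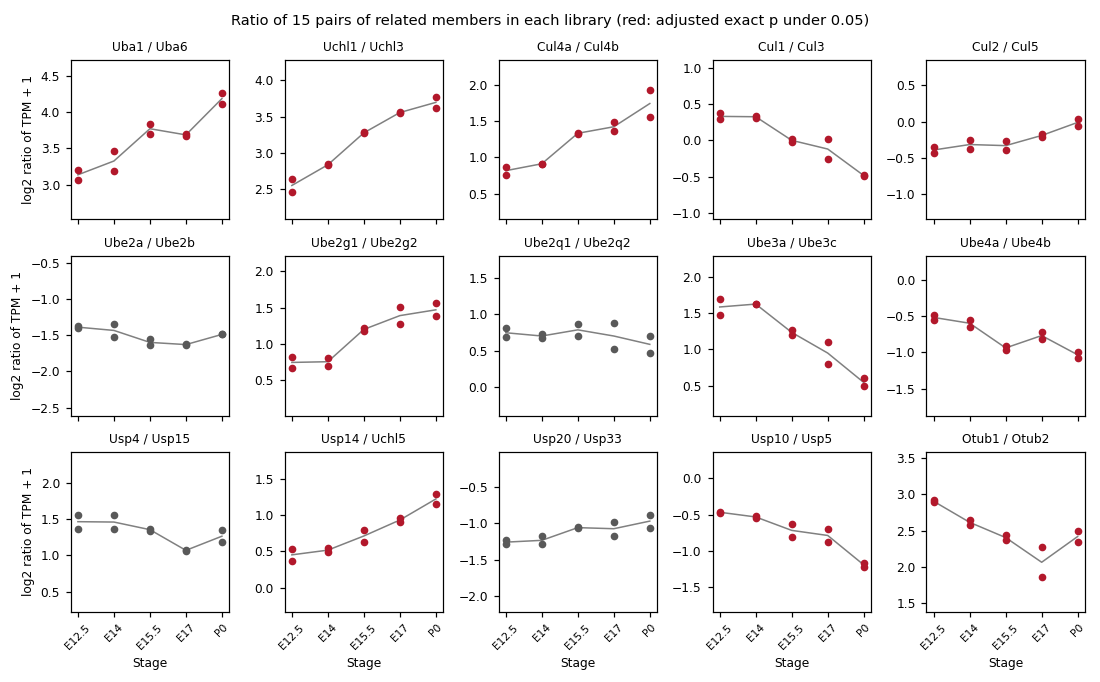
log2 ratio of TPM + 1 (y axis, the same span in each panel, centred on the pair's mean) for 15 pairs of related members in each library against stage; points are libraries and lines join stage means. Red panels (11) passed the exact permutation test after adjustment and grey ones (4) did not; Cul1 / Cul3 crosses 0 between E12.5 and P0.

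By step, most change fell at E14 to E15.5 and at E17 to P0: the largest step in size was the first of these for 34 members and the last for 30. All genes tested were also called most often at these steps (18.4% higher and 33.3% lower, then 12.9% higher and 28.8% lower). The largest step was not counted over all genes, so nothing particular to the members is read from it. From E12.5 to E14, 0 members rose and 2 fell (Ube2c by 0.48 and Usp1 by 0.41 on the log2 scale), beside 3.95% of all genes higher and 4.78% lower. Neither was called when any 1 library of E12.5 or E14 was left out (adjusted p between 0.0866 and 0.191), and Usp1 was also not called without either E15.5 library (0.0522); 10 members were called without either E17 library. From E14 to E15.5, 10 rose (13.2%, beside 18.4% of all genes) and 18 fell (23.7%, beside 33.3%). Usp43 (2.25), Uchl1 (0.77) and Usp22 (0.62) rose most among those with a mean of at least 5 TPM, and Ube2c (-1.42), Usp1 (-1.02) and Ube2t (-0.87) fell most. The 28 calls became 17 without either E14 library, 15 without E15.5 replicate 2 and 45 without either E17 library.

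From E15.5 to E17, 5 members rose and 5 fell (6.58% each, beside 14.4% and 10.6% of all genes). Usp43 (1.18) rose and Ube2c (-0.83), Ube2t (-0.57) and Usp1 (-0.43) fell. Usp48 (0.44) and Usp34 (0.43) were also called, but rested on E17 replicate 1: Usp48 was at 47.83 TPM there and 33.73 in replicate 2, and without replicate 1 the changes were 0.20 (adjusted p 0.127) and 0.21 (adjusted p 0.16). Neither was called when any 1 library of another stage was left out, Usp1 was not without either E15.5 library (0.0882 and 0.0523), and Ube2t was not without E15.5 replicate 2 (0.0892). The 10 calls became 16 without E17 replicate 1, 26 without E17 replicate 2, 5 without any E12.5 or E14 library, and 3 and 2 without E15.5 replicate 1 and 2. From E17 to P0, 8 rose (10.5%, beside 12.9%) and 17 fell (22.4%, beside 28.8%). Usp46 (0.54), Ube2v2 (0.40) and Usp43 (0.40) rose most, and Ube2c (-1.80), Usp8 (-0.70) and Usp40 (-0.67) fell most. The 25 calls became 15 without P0 replicate 1 and 42 without E17 replicate 2. Ube2v2 was not called without E17 replicate 1 (adjusted p 0.0682) or P0 replicate 2 (0.158), nor Usp43 without either P0 library (0.0961 and 0.0697).

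Reads of some members can be shared with other genes. In GENCODE M21, the share of 50-base stretches of the longest transcript that also occur in other genes was 58.9% for Ube2l3, 46.3% for Ube2h, 45.3% for Usp14, 38.9% for Usp33, 33.8% for Usp29, 22.8% for Usp1 (a processed pseudogene, Gm5841) and 17.8% for Ube2c (mainly the overlapping Tnnc2 on the opposite strand). Values of these members are uncertain to that extent. Change from E12.5 to P0 had a Spearman correlation of -0.0113 with transcript length over the 76 members, which share the same libraries.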

How the data were processed

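RNA of cleared neocortex lysates, extracted with TRIzol LS, was made into TruSeq Stranded mRNA libraries, per the labels' protocols. The authors deposited a table of TPM per gene and library, per the file headers. STAR, Subread and GRCm38.p5 are named in the submitters' processing notes, with no versions; the sources used here do not give the annotation, the strand setting or the rule for listing 6147 genes. Listed genes hold between 68.9% and 71.7% of all TPM per library.

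Column names gave the library and the labels its stage (0 columns had no sample). Values were analysed as log2(TPM + 1) for the 6048 genes whose mean reached 1 TPM, with limma 3.58.1 in R 4.3.3: 1 mean per stage over 10 libraries, 5 residual degrees of freedom, variance trend, Benjamini-Hochberg adjustment over all genes, and a threshold of 0.05. A fold change on this scale understates that of low genes. The median SE of a difference was 0.107. Ratios of 15 pairs were tested by exact permutation. The fit and the permutation test were tested on simulated data. Lengths and shared stretches came from GENCODE M21, promoters from RefSeq. Python 3.11.15 with scipy 1.17.1 made tables.

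The members and lists were chosen with earlier results of these data known. Named were, per step, the 3 members with the largest called rise and fall, for E12.5 to P0 the 8 of each (mean of at least 5 TPM, no overlap), the E1s and cullins, the pairs, the 5 highest means, the lists' members, and the largest called rise and fall of each pathway list. Other members are named to account for the rest; a few items are not reported here. Of the genes on the lists of members, Uba7, Ube2f, Ube2l6, Ube2v1, Usp2, Usp12, Usp18, Usp30, Usp37 and Usp44 are not analysed here.

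Apart from the ratios, alternatives changed 1 setting each: the pseudocount (0.1 or 10 TPM), the filter (none, or a mean of 5 TPM), median-of-ratios scaling, quantile normalization, no variance trend, robust moderation, array weights, only the 4 libraries of a comparison, a replicate block and leaving out each library. Leaving out both E17 libraries and a correction for length and GC content were added after seeing the data. For the ratios, the replicate block and each left-out library were run with limma's F test in place of the permutation, so the test changed as well.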

Additional observations from a re-analysis of the deposited data

How the results depend on the processing

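The counts of members changed over the 5 stages (46 to 69 against 55), from E12.5 to P0 (43 to 63 against 55) and of changed pairs (11 to 13 against 11) stayed within 1.5 times under each alternative run. Counts at single steps did not, and the cause was not tested. From E12.5 to E14 the count of 2 became 23 with array weights, 24 with only the 4 libraries of the comparison, 5 with quantile normalization, 9 with the length and GC correction and 10 without both E17 libraries, and ran from 0 to 10 with single libraries left out. From E14 to E15.5 the count of 28 became 55, 54, 45 (length and GC) and 45 (without both E17 libraries) in the same settings, and ran from 15 to 45. From E15.5 to E17 the count of 10 became 3 with array weights, 2 with 4 libraries, 18 with quantile normalization and 25 with length and GC, and ran from 2 to 26. From E17 to P0 the count of 25 became 7, 7 and 42 (array weights, 4 libraries, length and GC), and ran from 15 to 42.

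The split of calls depended on the scaling. The share of called members that rose from E12.5 to P0 was 36.4% as deposited, 56.9% with median-of-ratios scaling, 50% with quantile normalization and 55% after the length and GC correction; from E14 to E15.5 these shares were 35.7%, 60%, 54.3% and 60%, from E15.5 to E17 50%, 33.3%, 33.3% and 24%, and from E17 to P0 32%, 57.7%, 57.1% and 73.8%. Changes from E12.5 to P0 that turned sign, with a call in either fit, were, after the length and GC correction, Cul4a (0.20), Cul5 (0.04), Uba3 (0.11), Ube2h (0.22), Ube2l3 (0.06), Ube2q1 (0.02), Ube2q2 (0.28), Usp15 (0.23), Usp4 (0.03) and Usp7 (0.08). With median-of-ratios scaling they were Cul5 (0.00), Ube2h (0.19), Ube2q1 (0.04), Ube3b (0.00), Usp4 (0.02) and Usp5 (0.25), and with quantile normalization Usp15 (0.28).

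Replicate numbers were shared across stages, but deviations of same-numbered libraries correlated between -0.375 and 0.107 over 10 pairs of stages, so the numbers were not taken to pair samples. A fit with the replicate block called 55 members from E12.5 to P0, 2, 27, 8 and 24 at the 4 steps in order, 54 over the 5 stages and 13 pairs. With unknown depth, precision rests on the spread of 2 libraries per stage.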
